A study of Arabidopsis thaliana with 12 samples.

Results

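Leaves of ssi2 act1 plants, in which a second mutation suppresses the growth and defence defects of ssi2, were compared with leaves of wild type Arabidopsis thaliana, with every measured transcript taken into account. The comparison rests on 6 of the 12 arrays of the series, chosen by the genotype in the sample labels: 3 of ssi2 act1 and 3 of wild type. It covers 22746 of the 22810 probe sets on the Affymetrix array, all except 64 control probe sets. The other 6 arrays held 3 samples of ssi2 and 3 of ssi2 sid2, and they are used here to show where a gene stood in the single mutant and in the other double mutant. Plants of all 4 genotypes, ssi2 act1, ssi2, ssi2 sid2 and wild type, were in the Col-0 background, were grown in 1 chamber and gave leaves at a labelled age of 4 weeks. No pathogen or chemical treatment is recorded. All 3 mutant lines carry ssi2, and no line with act1 alone was profiled, so a difference between ssi2 act1 and wild type cannot be assigned to either mutation. The labels do not name the alleles, and they do not say whether plants were pooled or how far the replicates, which they call biological, were grown apart. The p-values therefore measure the spread between these samples.

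SSI2 is a plastid desaturase that turns stearic into oleic acid bound to acyl carrier protein. Plants that lack it are low in oleic acid, stay small, form lesions and run salicylic acid defences without infection. ACT1 is the plastid acyltransferase that joins oleic acid to glycerol-3-phosphate; it is unrelated to actin. Its loss leaves more oleic acid in the plastid, and ssi2 act1 plants are known to look close to wild type. SID2 is the isochorismate synthase through which most salicylic acid is made, so ssi2 sid2 plants lack that branch of the response while oleic acid stays low. Iron responses enter here because leaves short of iron switch on a small group of genes. Among them are basic helix-loop-helix factors such as BHLH101, which turn on iron uptake genes, and the short IRON MAN peptides, which act as signals of iron shortage. Opposing them are E3 ligases of the BRUTUS family, which remove iron regulators.

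The annotation used here names no probe set for SSI2, ACT1 or SID2 alone, and the transcripts of the mutated genes themselves were not analysed here. On the first principal component of all 12 arrays, which held 31.7% of the variance, the ssi2 act1 arrays scored -55.1 to -44.0. The ssi2 arrays scored 34.6 to 81.0 and the ssi2 sid2 arrays 26.1 to 53.9. Wild type arrays scored -57.4 to -51.0, next to ssi2 act1. Median signals were 101 to 138 on ssi2 act1 arrays and 95.7 to 128 on wild type arrays. The lowest Pearson's r between replicates was 0.942 for ssi2 act1 and 0.914 for wild type, the lower value in a pair with wild type replicate 2, which stood apart on the third component at -98.8. Replicate 3 of ssi2 stood apart on the second at -92.9. The actin control probe set of the 3′ end read 768, 787 and 976 on ssi2 act1 arrays, against 5410.2, 3858 and 5936 on wild type arrays (log2 difference -2.55, adjusted p = 0.0011, limma). Its ratio of 3′ to 5′ signal was 2.15 to 2.81 in ssi2 act1, against 5.98 to 11.3 in wild type. The ssi2 and ssi2 sid2 arrays had ratios of 1.05 to 2.66, so wild type stood apart from every mutant line. The GAPDH ratio, 1.61 to 2.75 in ssi2 act1 and 1.56 to 2.15 in wild type, overlapped. These control values moved with the genotype, and their part in the results below was not tested.

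ssi2 act1 leaves still differed from wild type at a small share of the transcriptome, and more transcripts were lower than higher. Differences are given on the scale log2(signal + 16), which understates the change of dim genes; a probe set is called where its adjusted p was under 0.05 in a limma fit of all 12 arrays with Benjamini-Hochberg adjustment. Of the 22746 probe sets, 151 were higher in ssi2 act1 (0.664%) and 256 were lower (1.13%), which makes 407 in all (1.79%). The same fit called 8.37% between ssi2 act1 and ssi2 and 6.4% between ssi2 act1 and ssi2 sid2; these comparisons share the ssi2 act1 arrays. The smallest called difference was 1.02 in size, and 57 called probe sets were higher by at least 2 and 116 lower by at least 2. With 3 arrays a genotype smaller differences were less likely to pass, so these sizes do not describe all changes. The median over all probe sets was 0.03. At an unadjusted p under 0.05 there were 2920 probe sets. In all 407 called probe sets the 3 ssi2 act1 values did not overlap the 3 wild type values, and such a gap was seen in 3758 of all probe sets (16.5%). Probe sets with a single gene covered 13356 genes, of which 214 were called (1.6%), 81 higher (0.606%) and 133 lower (0.996%).

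**Figure D1:**
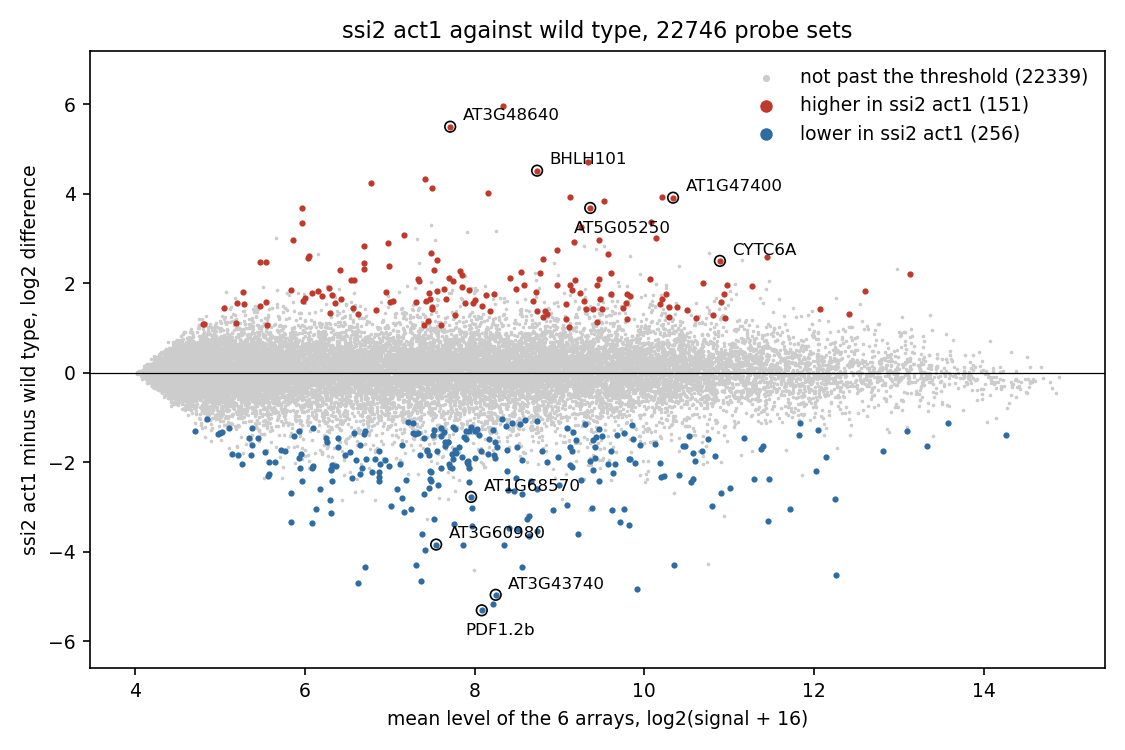
Each point is 1 of 22746 probe sets. The horizontal axis is the mean level of the 6 arrays as log2(signal + 16) and the vertical axis the log2 difference of ssi2 act1 minus wild type. Red marks the 151 probe sets higher in ssi2 act1, blue the 256 lower, and circles mark genes named in the text.

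The number of called probe sets depended on which arrays were in the fit. Without wild type replicate 2 there were 197 higher and 370 lower, and without it and ssi2 replicate 3 there were 294 and 505. Without any other single array of the 6 the counts lay between 65 and 95 higher and between 123 and 167 lower, and a fit of the 6 arrays alone called 30 and 62. Lower probe sets outnumbered higher ones in each of these fits. Under all 15 alternative settings 59 probe sets were called, 22 higher and 37 lower, and they included 35 named genes. Genes whose call ended without 1 array are given below with that loss.

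Part of the iron-deficiency response was high in ssi2 act1 leaves. Of 84 iron loci in the lists used, 27 were measured; 3 of them rose, 0 fell and 24 were not called, so that 11.1% were called beside 1.6% of all measured genes. The 3 were BHLH101, AT1G47400, which encodes an IRON MAN peptide, and AT5G05250, a gene of unknown function that is induced in iron-deficient plants. The median difference over the 27 genes was 0.20, against 0.03 over all measured genes. The list was chosen with these results known. Its other loci, FIT, IRT1, FRO2 and the ferritin genes among them, had no probe set named for them alone and were not assessed.

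BHLH101, a helix-loop-helix factor of the iron response, had signals of 1364, 2249.6 and 2714 in ssi2 act1, against 75.9, 73.1 and 70.6 in wild type. Every ssi2 act1 array was far above the 3 wild type arrays, which agreed closely with each other. The difference corresponds to 22.9-fold on the offset scale (log2 difference 4.52, 95% interval 2.46 to 6.58, adjusted p = 0.0348). The interval and adjusted p use a spread shared by all genotypes. The standard deviation on the log2 scale was 2.60 in ssi2 sid2 and 0.78 in ssi2, against 0.51 in ssi2 act1 and 0.04 in wild type. ssi2 lay between, at 819, 701 and 291. ssi2 sid2 had 56.4, 1647 and 59.1, high on 1 array and below wild type on the other two. Neither differed from ssi2 act1 past the threshold (1.85 against ssi2, adjusted p = 0.288, and 3.29 against ssi2 sid2, adjusted p = 0.0614). Neither line was called against wild type (2.67 for ssi2, adjusted p = 0.102, and 1.22 for ssi2 sid2, adjusted p = 0.547). The call was close to the threshold and ended without any one of the 6 arrays, with adjusted p between 0.0565, without wild type replicate 2, and 0.135, without ssi2 act1 replicate 3, while the difference stayed between 4.31 and 4.80.

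AT1G47400 read 2579.8, 6109 and 7998 in ssi2 act1, against 373, 115 and 713 in wild type (log2 difference 3.91, 95% interval 2.31 to 5.52, adjusted p = 0.0193). Every ssi2 act1 array was above every wild type array, and both groups were spread. ssi2 had 7603, 4138 and 1667 and ssi2 sid2 1891, 7188 and 2499, so all 9 mutant arrays were above the wild type arrays, and the gaps between mutant lines lay within their spread (0.42 against ssi2, 95% interval -1.19 to 2.03, and 0.63 against ssi2 sid2, 95% interval -0.98 to 2.23). In the same fit both other mutant lines were called above wild type, ssi2 by 3.49 (adjusted p = 0.0102) and ssi2 sid2 by 3.29 (adjusted p = 0.0213). The call for ssi2 act1 ended without ssi2 act1 replicate 2 (adjusted p = 0.0768), ssi2 act1 replicate 3 (0.0989) or wild type replicate 1 (0.0657). It was also lost in a fit of the 6 arrays alone.

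AT5G05250 was the steadiest of the 3, at 2318, 2423 and 2297 in ssi2 act1, against 236, 75.9 and 251 in wild type (log2 difference 3.68, 95% interval 2.61 to 4.75, adjusted p = 0.00461). The ssi2 act1 arrays differed from each other by little, and the groups were far apart. Its call held under all 15 alternatives, with adjusted p between 0.0016 and 0.0299. ssi2 had 1234, 733 and 799 and ssi2 sid2 591, 1801 and 525, between the other groups; ssi2 act1 was above ssi2 by 1.37 (adjusted p = 0.117) and above ssi2 sid2 by 1.49 (adjusted p = 0.101), neither past the threshold. In ssi2 sid2, replicate 2 had the highest value of the line for each of the 3 genes.

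**Figure D2:**
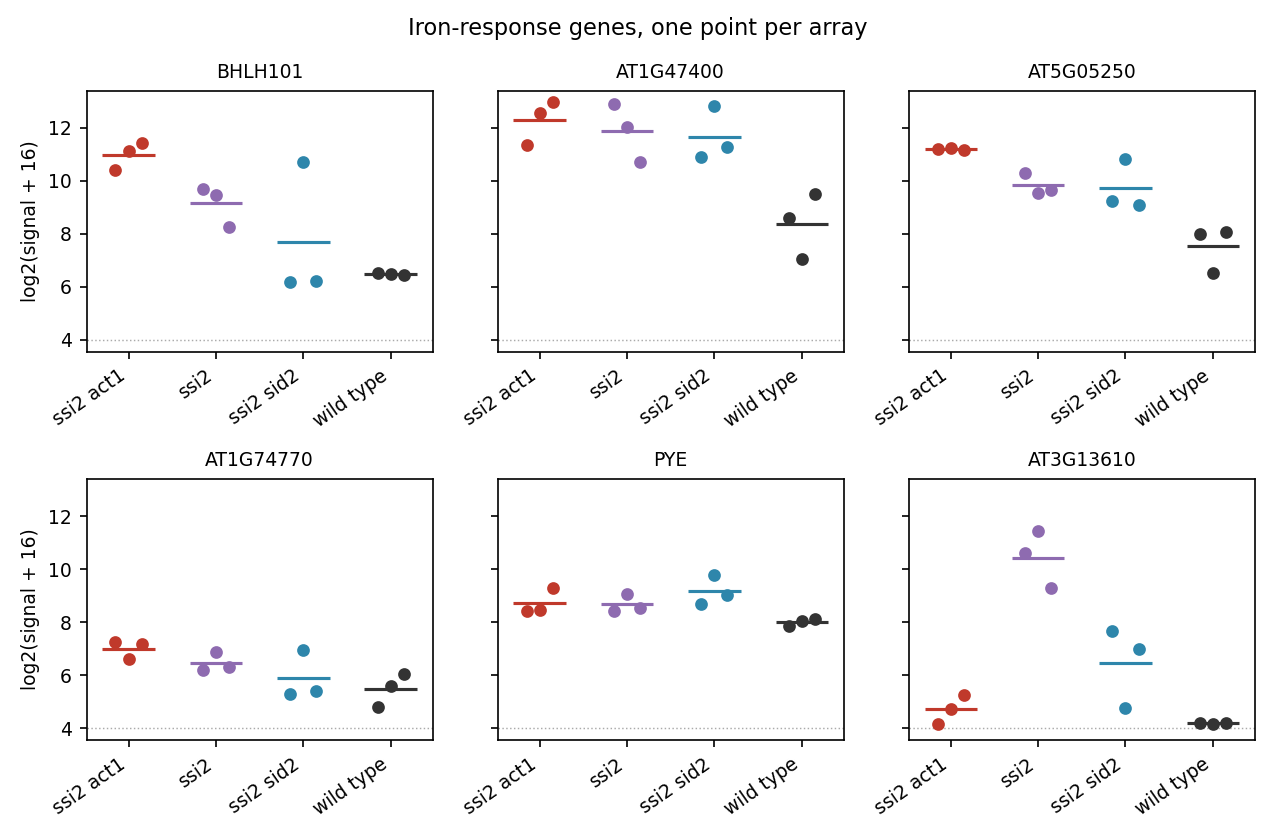
Levels of 6 iron-response genes as log2(signal + 16), 1 point for each of the 3 arrays of ssi2 act1, ssi2, ssi2 sid2 and wild type, with a bar at the mean; the dotted line is a signal of 0. BHLH101, AT1G47400 and AT5G05250 are above wild type on every ssi2 act1 array, whereas AT3G13610 is near the floor in ssi2 act1 and wild type and high in ssi2.

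The remaining 24 iron genes were not called. In 7 of them the ssi2 act1 arrays did not overlap the wild type arrays. With the 3 called genes that makes 10 of 27 (37.0%, beside 16.5% of all probe sets), 8 higher and 2 lower. The list was chosen with results known, and gaps near the floor are counted. AT4G37850, 1 of the 10, had 2.94, 5.99 and 2.26 in ssi2 act1, against 0.88, 1.99 and 1.89 in wild type. The E3 ligase gene AT1G74770 (BTSL1), a relative of BRUTUS, had 136, 81.6 and 129 in ssi2 act1, against 11.9, 32.6 and 49.6 in wild type (log2 difference 1.53, 95% interval 0.54 to 2.51, adjusted p = 0.138). AT3G56360, an iron-responsive gene of unknown function, had 7591, 12077 and 7759 in ssi2 act1, against 4391, 4469 and 4687 in wild type (log2 difference 0.98, 95% interval 0.27 to 1.69, adjusted p = 0.192). Both were higher on every ssi2 act1 array, and neither passed the threshold. The same held for PYE, a factor that restrains iron storage and transport genes in deficient roots, with 331, 335 and 622 in ssi2 act1, against 219, 251 and 264 in wild type (log2 difference 0.71, 95% interval -0.02 to 1.44, adjusted p = 0.406), and for the mitochondrial iron carrier gene AT2G30160 (MIT1), with a difference of 0.69 (95% interval 0.09 to 1.29).

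Regulators that act upstream of BHLH101 and are set mainly at the protein level showed no called difference. ILR3 differed from wild type by -0.06 (95% interval -0.63 to 0.51), bHLH104 by -0.50 (-1.19 to 0.20), bHLH115 by 0.18 (-0.35 to 0.72), bHLH34 by -0.58 (-1.52 to 0.36) and bHLH121 by 0.60 (-0.84 to 2.05). These intervals do not show that the levels were equal. bHLH115 and bHLH34 were lower in ssi2 act1 than in another mutant line, bHLH115 at -1.07 against ssi2 (adjusted p = 0.0195) and bHLH34 at -1.78 against ssi2 sid2 (adjusted p = 0.0315). Of 35 loci of iron transport, chelation and storage only 5 were measured, the ferritin genes not among them, and 0 were called. The vacuolar transporter genes AT3G43630 and AT3G43660 differed by 0.11 and 0.12 and the second mitochondrial carrier gene AT1G07030 by 0.56. The manganese and iron transporter gene AT3G58060 (MTP8), dim on all 12 arrays, differed by -0.92 (95% interval -1.82 to -0.03, adjusted p = 0.367). Its ssi2 act1 arrays were below its wild type arrays. The related factors AT2G22750, AT2G22760, AT4G37850 and NAI1, which act with jasmonate to lower iron uptake in roots, lay at 0.20, 0.16, 0.16 and -0.23, and the second BRUTUS relative AT1G18910 (BTSL2) and the iron-responsive gene AT3G61930 at 0.52 and -0.18, none of them called.

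In the coumarin branch of the iron response, by which roots release iron-binding phenolics, no measured gene was called between ssi2 act1 and wild type. AT3G13610, the feruloyl-CoA hydroxylase that makes scopoletin, had 1.98, 10.7 and 21.8 in ssi2 act1, 1558, 2760.0 and 606 in ssi2, 188, 10.9 and 112 in ssi2 sid2 and 2.27, 2.08 and 2.54 in wild type. It was lower in ssi2 act1 than in ssi2 (difference -5.73, adjusted p = 0.00051) and differed from wild type by 0.52 (95% interval -0.96 to 2.01). AT1G28680, the next enzyme of coumarin synthesis, was also lower than in ssi2 (difference -2.24, adjusted p = 0.00104) and differed from wild type by -0.42 (95% interval -1.07 to 0.23). AT3G07720, a kelch-repeat gene that responds to iron shortage, was below both other mutant lines (-2.02 against ssi2, adjusted p = 0.00118, and -1.60 against ssi2 sid2, adjusted p = 0.00717) and lay at -0.48 against wild type (adjusted p = 0.542). AT3G12900, which hydroxylates scopoletin, and the beta-glucosidase gene BGLU42 differed from wild type by 0.35 and 0.46, within their spread.

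Among 4 measured genes of copper and zinc homeostasis 0 were called (beside 1.6% of all measured genes). CCS, the chaperone that loads copper into superoxide dismutase, had 3111, 2750.5 and 3465 in ssi2 act1, against 1159.6, 287 and 563 in wild type (log2 difference 2.40, 95% interval 0.97 to 3.82, adjusted p = 0.104). All 3 ssi2 act1 arrays were above the wild type arrays, which were further apart from each other than the ssi2 act1 arrays were.

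The genes with the largest rise in ssi2 act1 were mostly high in the other ssi2 lines too. The called gene highest relative to wild type was AT3G48640, of unknown function, with 689, 2286 and 1721 in ssi2 act1, 4558, 5131 and 2848 in ssi2, 1082, 667 and 1915 in ssi2 sid2 and 7.17, 59.5 and 1.33 in wild type (log2 difference 5.50, 95% interval 4.21 to 6.80, adjusted p = 0.00253). It was close to absent on the wild type arrays and bright in each mutant line. AT5G15360, also of unknown function, had 714, 945 and 592 in ssi2 act1, against 53.3, 33.2 and 7.80 in wild type (log2 difference 4.12, 95% interval 3.26 to 4.98, adjusted p = 0.00118), with both other lines between 225 and 526. AT5G24240, a predicted phosphatidylinositol 4-kinase, had 215, 76.7 and 185 in ssi2 act1, against 5.75, 2.65 and 6.27 in wild type (log2 difference 2.97, 95% interval 2.19 to 3.74, adjusted p = 0.00291), and 181 to 429 in the other mutant lines. AT2G16670, which RefSeq lists as a pseudogene, rose by 3.69 (adjusted p = 0.00961) from a wild type signal of at most 2.02.

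AOP3 and AT2G15130 were above wild type in ssi2 act1 and had lower means there than in ssi2. AOP3, a dioxygenase that sets the side chain of aliphatic glucosinolates, had 1229, 469.7 and 731 in ssi2 act1, 5704, 3667 and 393 in ssi2, 2843, 2584 and 5057 in ssi2 sid2 and 24.5, 22.5 and 19.0 in wild type (log2 difference 4.34, 95% interval 2.67 to 6.01, adjusted p = 0.0139). The gap to ssi2 was not past the threshold (-1.42, adjusted p = 0.32). Its neighbour AOP2 was not measured here, and whether AOP2 transcripts add to the AOP3 signal was not tested. AT2G15130, of a family of secreted proteins tied to defence, had 122, 701 and 1098 in ssi2 act1, 14103, 15743 and 10214 in ssi2, 11906, 1775 and 10427 in ssi2 sid2 and 13.8, 9.71 and 4.79 in wild type (log2 difference 4.25, 95% interval 2.56 to 5.94, adjusted p = 0.0168). It was lower in ssi2 act1 than in ssi2 (difference -4.78, adjusted p = 0.00304) and than in ssi2 sid2 (-3.66, adjusted p = 0.017). AOP3 lost its call without ssi2 act1 replicate 1 or 3 or wild type replicate 1 or 3 (adjusted p up to 0.0591), and AT2G15130 without ssi2 act1 replicate 2 or 3 or wild type replicate 1 or 3 (up to 0.0784).

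AT1G25400, AT2G29170 and AT5G60260 completed the 12 highest genes with BHLH101, AT1G47400 and AT5G05250. AT1G25400, of unknown function, had 2254, 2289 and 1284 in ssi2 act1, 176, 141 and 154 in ssi2, 421, 1588 and 394 in ssi2 sid2 and 152, 404 and 92.4 in wild type (log2 difference 3.27, 95% interval 2.05 to 4.48, adjusted p = 0.0123). It was also above ssi2, by 3.46 (adjusted p = 0.00301), and its call against wild type ended without ssi2 act1 replicate 2 (adjusted p = 0.0525), wild type replicate 1 (0.0558) or wild type replicate 3 (0.0531). AT2G29170 had 378, 449.6 and 379 in ssi2 act1, against 52.7, 18.1 and 36.0 in wild type (log2 difference 3.07, 95% interval 2.00 to 4.14, adjusted p = 0.00961), and was 3.35 above ssi2 sid2 (adjusted p = 0.00366). AT5G60260 had 164, 382 and 561 in ssi2 act1, against 17.2, 43.1 and 34.9 in wild type, a rise of 2.90 (adjusted p = 0.00405).

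**Figure D3:**
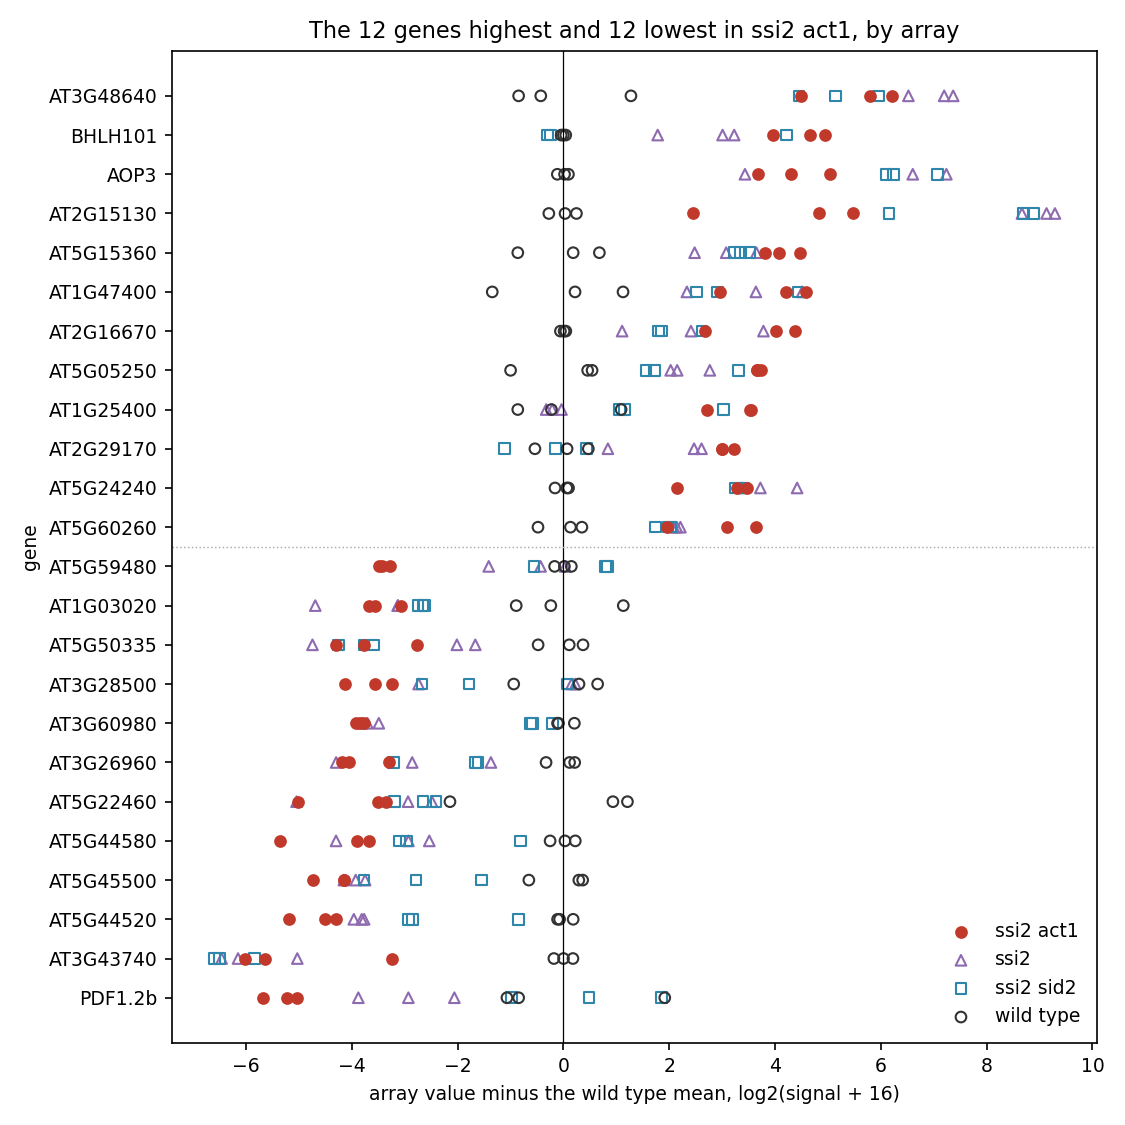
The 12 genes highest and the 12 lowest in ssi2 act1 relative to wild type, from the rule for named genes. Each symbol is 1 array, placed at its log2(signal + 16) minus the wild type mean of the gene; filled red circles are ssi2 act1, triangles ssi2, squares ssi2 sid2 and open circles wild type. In each gene all ssi2 act1 arrays lie on 1 side of all wild type arrays, and for most genes the other mutant lines lie on that side too.

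The lowest genes in ssi2 act1 were led by a defensin, and in many of them the other ssi2 lines were low too. PDF1.2b, an antifungal defensin under jasmonate and ethylene control, had 29.6, 36.2 and 17.6 in ssi2 act1, 394, 101 and 209 in ssi2, 2373, 6155 and 853 in ssi2 sid2 and 801, 6448 and 937 in wild type (log2 difference -5.31, 95% interval -7.11 to -3.52, adjusted p = 0.00864). The ssi2 act1 arrays were the lowest of the series, with a difference of -5.76 from ssi2 sid2 (adjusted p = 0.00337) and of -2.36 from ssi2, which did not pass (adjusted p = 0.108). Its paralog PDF1.2 followed, with 25.8, 74.7 and 28.1 in ssi2 act1, against 611, 6237 and 401 in wild type (log2 difference -4.42, 95% interval -6.88 to -1.95, adjusted p = 0.0828). Wild type replicate 2 was far above the other wild type arrays for both. The PDF1.2b probe set may share sequence with its paralogs, so signal cannot be divided with certainty between the defensin genes.

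AT3G43740, a leucine-rich repeat protein gene, had 165, 18.1 and 10.2 in ssi2 act1, 3.32, 36.1 and 7.95 in ssi2, 13.6, 1.53 and 2.79 in ssi2 sid2 and 1486, 1912 and 1688 in wild type (log2 difference -4.97, 95% interval -6.31 to -3.63, adjusted p = 0.00325). Only the wild type arrays carried a clear signal. AT5G44520, a gene of the ribose-5-phosphate isomerase type, had 20.5, 6.91 and 26.3 in ssi2 act1, 37.4, 43.2 and 45.1 in ssi2, 98.8, 444 and 93.0 in ssi2 sid2 and 928, 775 and 754 in wild type (log2 difference -4.66, 95% interval -5.68 to -3.64, adjusted p = 0.00155). Its ssi2 sid2 arrays were above ssi2 act1 (difference -2.45, adjusted p = 0.0105). AT5G45500, a leucine-rich repeat-like gene, was at 1.84, 10.8 and 10.6 in ssi2 act1, against 562, 284 and 592 in wild type (log2 difference -4.34, 95% interval -5.38 to -3.30, adjusted p = 0.00254), and AT5G44580, of unknown function, at 126, 442 and 372 in ssi2 act1, against 6777, 5917 and 4868 in wild type (log2 difference -4.31, 95% interval -5.72 to -2.90, adjusted p = 0.00734).

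AT3G60980 had the most secure fall of the named genes. Its signals were 33.4, 36.2 and 30.8 in ssi2 act1, 34.6, 47.1 and 38.3 in ssi2, 457, 597 and 445 in ssi2 sid2 and 640.0, 802 and 648 in wild type (log2 difference -3.84, 95% interval -4.31 to -3.37, adjusted p = 1.47e-05). The gene was low in ssi2 act1 and ssi2 alike and stood well above ssi2 act1 in ssi2 sid2 (difference -3.37, adjusted p = 2.47e-05). The same split was seen in genes named after their values were seen. AT2G33220, a subunit of mitochondrial complex I of the GRIM-19 type, had 237, 317 and 219 in ssi2 act1, 243, 225 and 202 in ssi2, 1621, 1475 and 1656 in ssi2 sid2 and 2165, 2347 and 2275 in wild type (log2 difference -3.07, 95% interval -3.53 to -2.61, adjusted p = 4.7e-05; difference from ssi2 sid2 -2.56, adjusted p = 0.000214). AT2G34840, a subunit of the coatomer of transport vesicles, had 1.89, 9.22 and 16.1 in ssi2 act1, 5.67, 3.28 and 2.03 in ssi2, 135, 131 and 152 in ssi2 sid2 and 186, 128 and 263 in wild type (log2 difference -3.04, 95% interval -3.67 to -2.42, adjusted p = 0.00118; difference from ssi2 sid2 -2.67, adjusted p = 0.00109).

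The rest of the 12 lowest genes fell by 3.39 to 3.96. AT3G26960, of the Ole e 1 family of secreted proteins, had 51.8, 109 and 58.5 in ssi2 act1, against 1414, 1321 and 967 in wild type (log2 difference -3.85, 95% interval -5.23 to -2.46, adjusted p = 0.0102). AT5G50335, of unknown function, fell by 3.61. The glutaredoxin family gene AT1G03020 had 54.5, 82.0 and 48.6 in ssi2 act1, against 429.6, 1796 and 685 in wild type (log2 difference -3.44, 95% interval -4.54 to -2.33, adjusted p = 0.00718). AT5G22460 and AT3G28500, the second an acidic protein of the large ribosomal subunit, were the least secure: their calls (adjusted p = 0.0424 and 0.0491) ended without any one of the 3 ssi2 act1 arrays or without wild type replicate 1 or 3, with adjusted p up to 0.156 and 0.171. AT5G50335 lost its call without ssi2 act1 replicate 1 or 3 or wild type replicate 1 or 3 (adjusted p up to 0.0825). Of the 24 extreme genes 16 kept their call without any one of the 6 arrays.

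A few genes set ssi2 act1 apart from every other genotype, ssi2 included. The clearest was AT1G68570, the transporter gene NPF3.1 of the nitrate and peptide transporter family, at 80.8, 77.4 and 79.2 in ssi2 act1, 2319, 2086 and 1985 in ssi2, 2063, 827 and 2350.0 in ssi2 sid2 and 643, 613 and 653 in wild type. The 3 ssi2 act1 arrays were close together and below all 9 others. The difference was -2.78 from wild type (adjusted p = 0.00291), -4.49 from ssi2 (adjusted p = 3.98e-05) and -4.08 from ssi2 sid2 (adjusted p = 0.000214). In ssi2 it lay on the other side of wild type. AT5G59480, a hydrolase of the haloacid dehalogenase type and the last of the 12 lowest genes, had 57.0, 49.3 and 47.1 in ssi2 act1, 506, 704 and 249 in ssi2, 1202, 463 and 1240.2 in ssi2 sid2 and 611, 697 and 764 in wild type (log2 difference -3.39, 95% interval -4.29 to -2.50, adjusted p = 0.00312). Against ssi2 its difference was -2.79 (adjusted p = 0.00188) and against ssi2 sid2 -3.75 (adjusted p = 0.00109). AT5G45410, of unknown function, was likewise lowest in ssi2 act1, with 119, 111 and 102 in ssi2 act1, against 1165, 1909.7 and 799 in wild type (log2 difference -3.28, 95% interval -4.10 to -2.45, adjusted p = 0.00264; adjusted p = 0.00727 against ssi2 and 0.00387 against ssi2 sid2). AT3G28220, which encodes a TRAF-like protein, differed from wild type by -2.99 (adjusted p = 0.0065) and from ssi2 by -3.93 (adjusted p = 0.000305). It read 966, 717 and 338 in ssi2 act1, 13972, 11258 and 5648 in ssi2, 4019, 4163 and 5291 in ssi2 sid2 and 5179, 7085 and 3438 in wild type, and its difference from ssi2 sid2 was -2.82 (adjusted p = 0.00449).

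Higher than in every other genotype was UGT85A4, a glycosyltransferase gene, with 1013, 976 and 811 in ssi2 act1, 245, 191 and 299 in ssi2, 150.1, 263 and 112 in ssi2 sid2 and 245, 113 and 230.5 in wild type (log2 difference 2.22, 95% interval 1.47 to 2.98, adjusted p = 0.00892). The other 3 genotypes overlapped, and the gap to ssi2 was 1.88 (adjusted p = 0.00627) and to ssi2 sid2 2.39 (adjusted p = 0.0036). CYTC6A, cytochrome c6A of the thylakoid lumen, had 3339.5, 6705 and 4077 in ssi2 act1, 1289, 1437 and 1950.1 in ssi2, 2194, 2000.0 and 1914 in ssi2 sid2 and 801, 818 and 732 in wild type (log2 difference 2.50, 95% interval 1.90 to 3.10, adjusted p = 0.00254). The RING finger gene AT4G17245 had 1548, 1829 and 1659 in ssi2 act1, 629.8, 791 and 826 in ssi2, 459.9, 800.0 and 571 in ssi2 sid2 and 339, 461 and 258 in wild type (log2 difference 2.23, 95% interval 1.64 to 2.83, adjusted p = 0.00323). Both were above ssi2 as well, CYTC6A by 1.54 (adjusted p = 0.00519) and AT4G17245 by 1.15 (adjusted p = 0.0233), and above ssi2 sid2 by 1.14 and 1.47 (adjusted p = 0.0314 and 0.00947). Except for AT5G59480 and UGT85A4, the genes of these 2 groups were chosen after their values were seen.

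**Figure D4:**
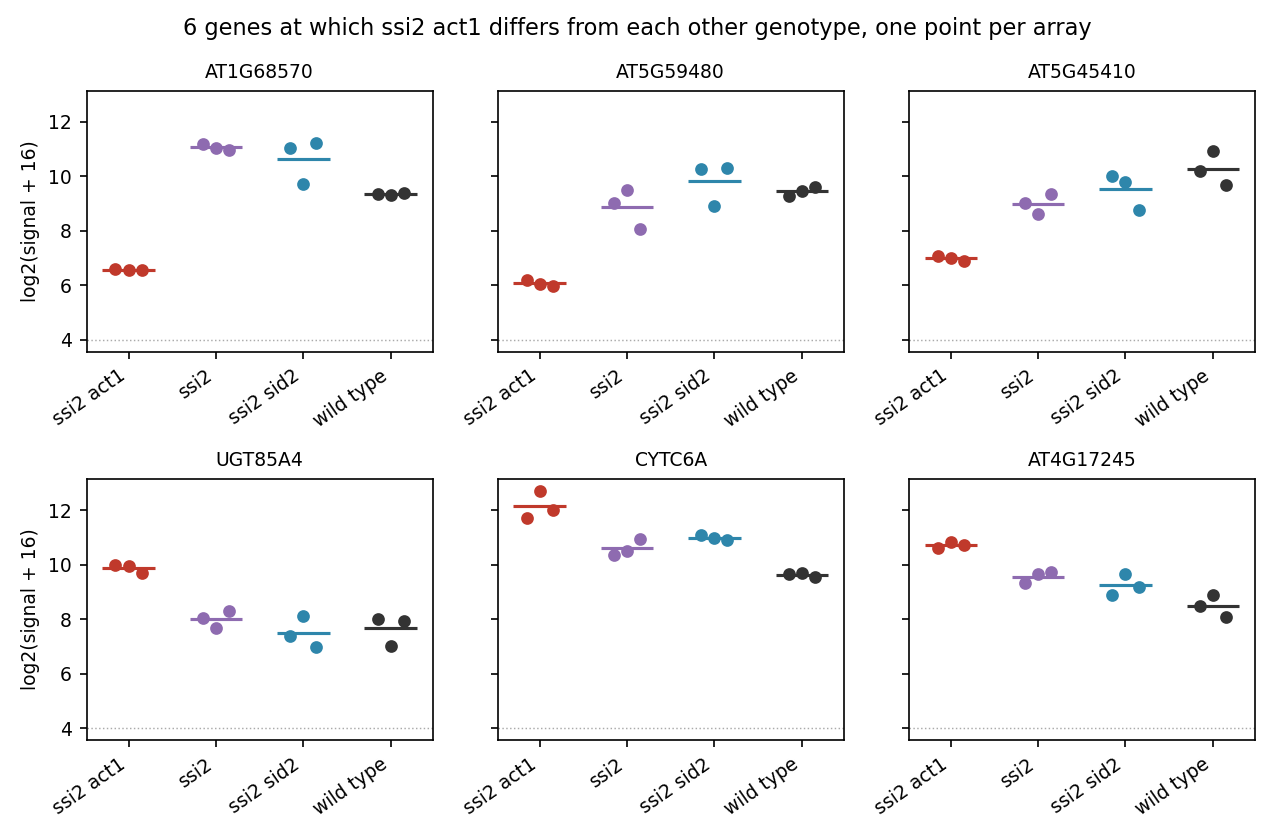
Levels of 6 genes as log2(signal + 16), 1 point for each of the 3 arrays of ssi2 act1, ssi2, ssi2 sid2 and wild type, with a bar at the mean; the dotted line is a signal of 0. AT1G68570, AT5G59480 and AT5G45410 are lower and UGT85A4, CYTC6A and AT4G17245 higher on the ssi2 act1 arrays than on all 9 other arrays.

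Each of the defence lists held 1 or 2 called genes in ssi2 act1. That was 7.69% to 40% of the measured members of a list, beside 1.6% of all measured genes. The lists were chosen with earlier results of these data known, and many of their loci were not measured. Measured were 13 of 41 salicylic acid loci, 5 of 16 pattern-immunity loci, 5 of 15 receptor loci and 6 of 22 jasmonate loci. PR1, PR2, PR5, EDS1 and PAD4 had no probe set named for them alone and were not assessed. Of all measured genes 0.606% were called higher and 0.996% lower, with a median difference of 0.03, and the counts below stand beside these shares; with so few members to a list, 1 called gene is already a larger share. Of 13 measured genes of salicylic acid synthesis and response 1 was higher and 0 were lower, with a median difference of 0.56. That gene, AT4G23610, of the family of late embryogenesis abundant and hairpin-induced-like proteins, had 86.2, 158 and 158 in ssi2 act1, 717, 772 and 435 in ssi2, 157, 89.1 and 136 in ssi2 sid2 and 12.7, 48.2 and 30.1 in wild type (log2 difference 1.73, 95% interval 0.94 to 2.52, adjusted p = 0.0356). It was below ssi2 (difference -2.13, adjusted p = 0.0039), and its call against wild type ended without ssi2 act1 replicate 2 or 3 or wild type replicate 1 or 3 (adjusted p up to 0.143). WRKY6, a factor of senescence and defence, differed from wild type by 1.33 (adjusted p = 0.222), AT5G55450, of the lipid transfer protein family, by 2.84 (adjusted p = 0.142) and the chitinase-like gene AT1G02360 by 1.69 (adjusted p = 0.0532). None of these passed the threshold. AT1G10340, an ankyrin repeat protein gene outside the list, chosen after its values were seen, had 346, 385 and 459 in ssi2 act1, 1492, 1546 and 2641 in ssi2, 579, 636 and 489.7 in ssi2 sid2 and 52.6, 74.4 and 75.9 in wild type. It was above wild type (log2 difference 2.31, 95% interval 1.72 to 2.89, adjusted p = 0.00264) and below ssi2 (difference -2.17, adjusted p = 0.000601).

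In pattern-triggered immunity 1 of 5 measured genes was higher (beside 0.606% of all measured genes) and 0 were lower, with a median of 0.88. EFR, the receptor for the bacterial elongation factor Tu, had 70.3, 58.5 and 66.9 in ssi2 act1, 126, 316 and 121 in ssi2, 88.3, 79.1 and 117 in ssi2 sid2 and 9.99, 18.8 and 5.82 in wild type (log2 difference 1.59, 95% interval 0.85 to 2.32, adjusted p = 0.0373). It was also below ssi2 (difference -1.20, adjusted p = 0.0483). Its call against wild type ended without any one of the ssi2 act1 arrays or without wild type replicate 1 or 3 (adjusted p up to 0.137), and with the offset of 64 the difference was only 0.78. The kinase gene BIK1 and the ubiquitin ligase genes PUB23 and PUB24 differed by 0.48, -0.70 and 0.88 (95% intervals -0.03 to 0.99, -1.55 to 0.16 and 0.24 to 1.53).

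Of 5 measured nucleotide-binding receptor genes 2 were lower (beside 0.996% of all measured genes) and 0 higher, with a median of -0.30. CSA1, a TIR-type receptor that acts in immunity and shade responses, had 4.40, 11.7 and 3.94 in ssi2 act1, 3.95, 5.55 and 20.6 in ssi2, 3.38, 1.62 and 4.56 in ssi2 sid2 and 143, 84.6 and 175 in wild type (log2 difference -2.69, 95% interval -3.36 to -2.03, adjusted p = 0.00264). It was near the floor in all 3 mutant lines. AT1G72920, which encodes a TIR protein, had 25.5, 2.21 and 2.26 in ssi2 act1, 0.716, 1.08 and 2.41 in ssi2, 653, 809 and 556 in ssi2 sid2 and 89.6, 79.3 and 69.4 in wild type (log2 difference -1.99, 95% interval -2.67 to -1.31, adjusted p = 0.00909). ssi2 sid2 was the highest genotype here (ssi2 act1 minus ssi2 sid2 -4.83, adjusted p = 2.47e-05). Members of this family are alike in sequence, so their signals may be shared.

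Among 6 measured genes of the jasmonate list 1 was lower, PDF1.2b (beside 0.996% of all measured genes), and 0 were higher, with a median of -0.98. Among 6 chitinase genes, which sit side by side near SSI2 on chromosome 2, 1 was lower and 0 were higher, with a median of -1.22. AT2G43590 had 40.4, 66.7 and 53.0 in ssi2 act1, 116, 106 and 64.6 in ssi2, 108, 73.5 and 48.6 in ssi2 sid2 and 321, 194 and 306 in wild type (log2 difference -2.05, 95% interval -2.74 to -1.36, adjusted p = 0.00853). AT2G43620 differed by -2.21 (adjusted p = 0.0617) and CHI (AT2G43570) by -1.48 (adjusted p = 0.647). CHI was lower in ssi2 act1 than in ssi2 (difference -6.45, adjusted p = 0.00288), with 11.98, 57.7 and 457 in ssi2 act1, 8122, 9265 and 8646 in ssi2 and 166, 1129 and 85.3 in wild type.

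Several of the genes most affected by ssi2 were within the spread of wild type in ssi2 act1. These genes were chosen after their values were seen. THI2.1, a thionin, had 30.1, 45.8 and 34.9 in ssi2 act1, 6065, 2398 and 985 in ssi2 and 34.4, 21.3 and 45.3 in wild type, with a difference from wild type of 0.11 (95% interval -1.07 to 1.29). WRKY53, a regulator of senescence and defence, differed from wild type by 0.01 (95% interval -0.74 to 0.75) and from ssi2 by -3.38 (adjusted p = 0.000202). The glutaredoxin gene GRX480 differed from wild type by 0.35 (95% interval -0.54 to 1.25) and the immune receptor gene AT1G57650 by -0.06 (95% interval -0.77 to 0.65), and both were below ssi2 (differences -2.41 and -5.33, adjusted p = 0.004 and 1.39e-05). OSM34, an osmotin, is less well fixed, because wild type replicate 2 was high: its values were 19.2, 21.1 and 65.4 in ssi2 act1, against 5.93, 375 and 5.44 in wild type (95% interval -2.22 to 1.69), and without that array the difference was 1.13.

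ECS1 and AT1G23130, low in ssi2 and also chosen after their values were seen, were not called against wild type in ssi2 act1. Other genes low in ssi2 were called lower in ssi2 act1 too, among them AT3G60980, AT3G43740 and AT5G45500 described above. ECS1, a cell wall protein gene, had 18885, 28133 and 26351 in ssi2 act1, 116, 99.2 and 107 in ssi2, 21417, 19303 and 22179 in ssi2 sid2 and 21855, 17588 and 13751 in wild type. The ssi2 arrays were far below all others. ssi2 act1 differed from wild type by 0.47 (95% interval -0.06 to 1.00) and from ssi2 by 7.61 (adjusted p = 2.13e-08). AT1G23130, of the Bet v 1 family, differed from wild type by -0.84 (95% interval -1.67 to -0.00) and from ssi2 by 7.24 (adjusted p = 3.77e-06). None of these intervals shows that ssi2 act1 and wild type were equal.

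In fatty acid synthesis, the pathway in which SSI2 acts, 6 of 19 loci were measured. Of these 0 were called (beside 1.6% of all measured genes), with a median of -0.32. With so few genes, a count of 0 does not describe the pathway. AT5G16240, a stearoyl desaturase paralog of SSI2, had 237, 274 and 193 in ssi2 act1, 38.7, 137 and 116 in ssi2, 195, 141 and 153 in ssi2 sid2 and 445, 332 and 401 in wild type (log2 difference -0.71, 95% interval -1.47 to 0.06, adjusted p = 0.447). It was above ssi2 by 1.27 (adjusted p = 0.0455). The thioesterase gene FaTA (AT3G25110), which releases oleic acid from its carrier protein, differed by -0.85 (95% interval -1.97 to 0.28). Genes of glycerolipid synthesis and of nitric oxide and nitrate metabolism had 0 measured members and were not analysed here.

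Of 7 measured genes of cold and drought response 0 were called (beside 1.6% of all measured genes), with a median of -0.31. COR15B, a chloroplast protein that protects membranes in the cold, had 3022, 3778 and 1771 in ssi2 act1, 1191, 1382 and 2379 in ssi2, 1257, 1424 and 1831 in ssi2 sid2 and 7152, 7552 and 6937 in wild type (log2 difference -1.40, 95% interval -2.11 to -0.68, adjusted p = 0.0579). COR15A differed from wild type by -1.003 (adjusted p = 0.314) and was above ssi2 by 1.83 (adjusted p = 0.018). COR27 and AT4G33980 (COR28), evening genes of the clock and cold response, lay at 1.37 and 1.60 against wild type (adjusted p = 0.528 and 0.526). The clock gene GI differed by -0.01, with an interval of -1.80 to 1.78 that holds large changes in either direction.

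Auxin response had 3 measured genes, of which 1 was lower (beside 0.996% of all measured genes) and 0 higher, with a median of -1.17. IAA29, a repressor of auxin signalling that is raised by shade and warmth, had 129.7, 362 and 327 in ssi2 act1, 44.7, 51.3 and 73.0 in ssi2, 74.0, 57.3 and 23.2 in ssi2 sid2 and 1647, 951 and 1726 in wild type (log2 difference -2.40, 95% interval -3.32 to -1.49, adjusted p = 0.0133). It lay between wild type and the other mutant lines: ssi2 act1 was above ssi2 by 1.90 (adjusted p = 0.0163) and above ssi2 sid2 by 2.06 (adjusted p = 0.0144). The call against wild type ended without wild type replicate 1 (adjusted p = 0.0631) or 3 (0.0615). GH3.3, an enzyme that conjugates auxin, differed from wild type by -0.73 (95% interval -2.16 to 0.71).

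In the gene families at most 2 members were called, to be set beside 1.6% of all measured genes. Of 47 glycosyltransferase genes 1 was higher, UGT85A4, and 1 was lower, UGT71B1, by -1.75 (adjusted p = 0.0385), a call lost without any one of the ssi2 act1 arrays or without wild type replicate 1 or 3 (adjusted p up to 0.152). Of 26 cytochrome P450 genes 1 was higher, CYP71B29, with 209, 211 and 216 in ssi2 act1, against 88.5, 44.9 and 51.4 in wild type (log2 difference 1.60, 95% interval 1.05 to 2.14, adjusted p = 0.00909). Of 18 expansin genes, whose products loosen cell walls, 1 was lower, EXPA16, with 147, 86.7 and 86.6 in ssi2 act1, against 499.8, 330.0 and 644 in wild type (log2 difference -2.03, 95% interval -2.73 to -1.33, adjusted p = 0.00909). Of 40 AGAMOUS-like MADS-box genes 2 were lower. AGL42 had 2.25, 10.1 and 4.23 in ssi2 act1, against 183, 171 and 260.5 in wild type (log2 difference -3.35, 95% interval -4.63 to -2.08, adjusted p = 0.0133), and AGL19, which promotes flowering after cold, had 39.6, 61.1 and 30.3 in ssi2 act1, against 149, 478 and 153 in wild type (log2 difference -2.04, 95% interval -2.95 to -1.12, adjusted p = 0.0321). AGL42 lost its call without ssi2 act1 replicate 1 or 3 or wild type replicate 1 or 3 (adjusted p up to 0.0601) and AGL19 without any one of the ssi2 act1 arrays (up to 0.135). Outside these families, WSD1, a wax ester synthase gene chosen after its values were seen, had 1.51, 3.10 and 1.54 in ssi2 act1, against 176, 135 and 194 in wild type (log2 difference -3.34, 95% interval -4.36 to -2.32, adjusted p = 0.00607).

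Calls were 0 among 6 WRKY, 14 SWEET, 13 glutathione transferase, 9 xyloglucan hydrolase and 69 organelle-encoded genes (beside 1.6% of all measured genes). In the SWEET sugar transporters the largest difference was that of SWEET4 (-1.86, adjusted p = 0.15), in the glutathione transferases that of GSTU16 (-0.89, adjusted p = 0.529) and in the xyloglucan hydrolases that of XTH19 (-2.66, adjusted p = 0.0855). Among organelle-encoded genes rps15, a plastid ribosomal protein gene, was closest to a call, with 1571, 1727 and 1033 in ssi2 act1, against 530.0, 651 and 272 in wild type (log2 difference 1.60, 95% interval 0.80 to 2.39, adjusted p = 0.0507), and rpl22 differed most (1.89, adjusted p = 0.197). Single measured genes of other lists were also uncalled: NAC014 (0.33), BGLU28 of the sulfur list (-0.49) and the anthocyanin glucosyltransferase gene AT4G14090 (-0.63), the largest of 4 flavonoid and light genes.

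**Figure D5:**
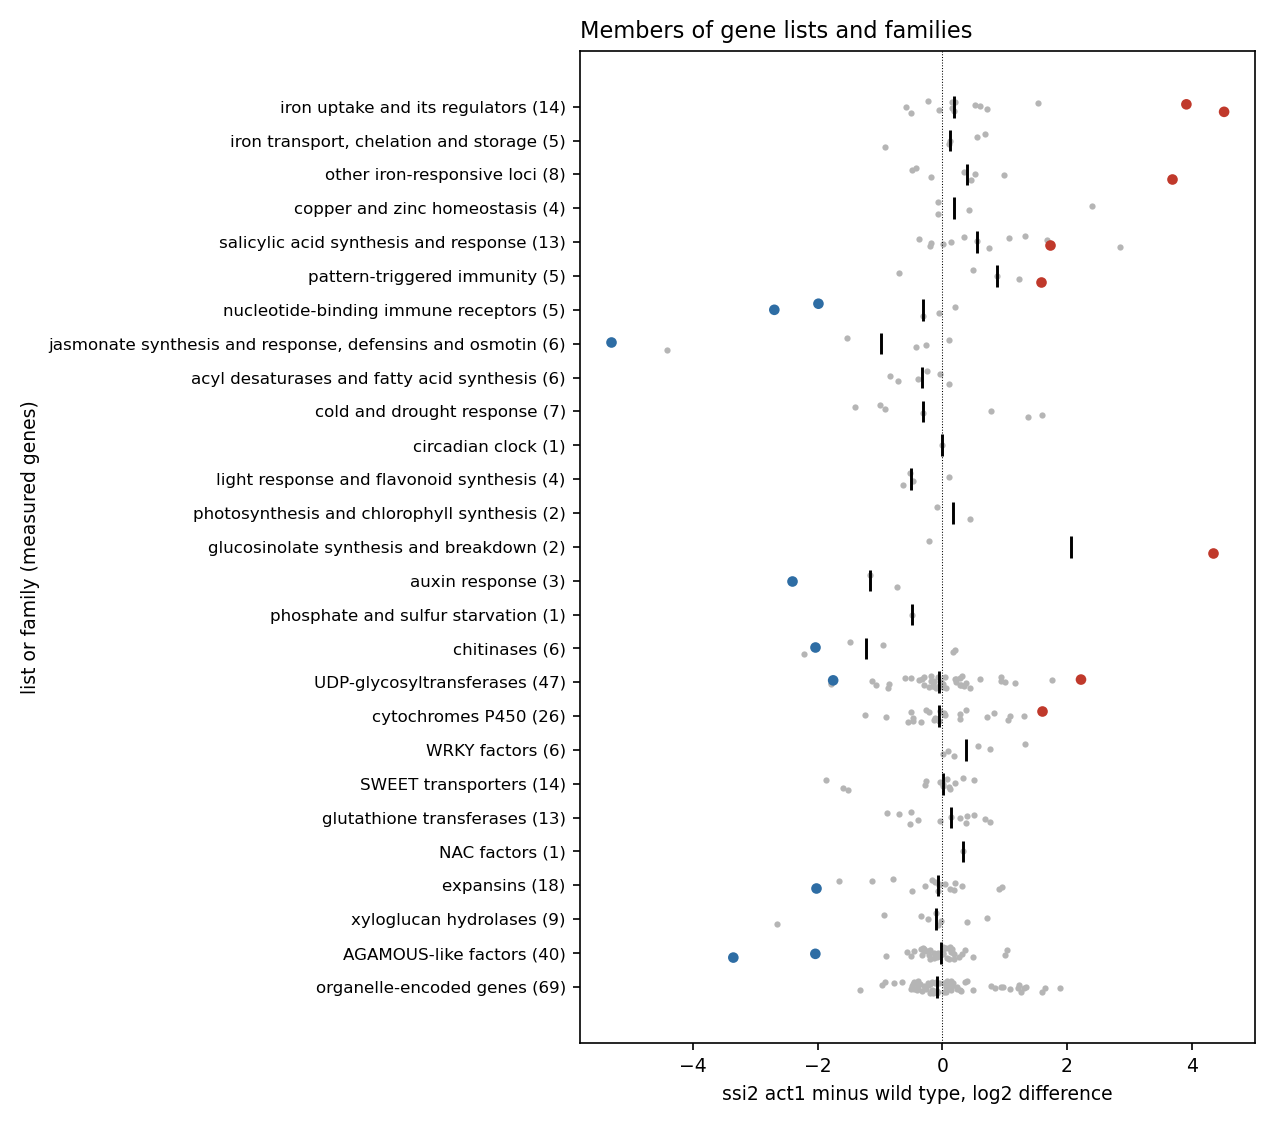
Each point is a measured gene of a list or family, placed at its log2 difference of ssi2 act1 minus wild type; the number of measured genes is in brackets. Red points are called higher, blue points called lower, grey points not called, and black bars are medians. Most members lie near 0, and BHLH101 and AT1G47400 are the red points of the first list and AT5G05250 that of the third.

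Markers of leaf tissue and of other cell types gave no called gene in the 4 marker lists with a measured member. RCA, the rubisco activase of mesophyll, read 13348, 8251 and 9085 in ssi2 act1, against 12254, 2419 and 13399.5 in wild type. It was bright on all 6 arrays and lowest on wild type replicate 2. The root marker PYK10 was dim, at 39.1 to 53.8 in ssi2 act1, against 21.5 to 38.0 in wild type. The summed signal of 3 guard cell lineage markers was 193 to 274 in ssi2 act1, against 144 to 209 in wild type, with FMA alone at 0.46 (adjusted p = 0.566). The vascular marker SWEET11 was 4285 to 7202 in ssi2 act1, against 4873 to 7821 in wild type. Markers of flowers, seeds, meristems and trichomes had 0 measured members. In bulk leaf samples, fewer cells of a type and less RNA per cell cannot be told apart.

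Called genes lay on all 5 nuclear chromosomes. Lower genes made up 1.44% of the measured genes of chromosome 5 (43 of 2982) and 0.704% of those of chromosome 1 (24 of 3411). Of the 50 measured genes around SSI2, 25 on either side, 1 was lower, the chitinase gene AT2G43590, and 0 were higher; around ACT1 there were 0 of either. When measured genes were taken in blocks of 50 in their order along each chromosome, 165 of 267 blocks held 0 lower genes and the most in a block was 4. That block lay on chromosome 2, from AT2G39650 to AT2G40580, and with the block before it held 6 lower genes. Another pair of neighbouring blocks, on chromosome 5, from AT5G44170 to AT5G46100, also held 6 lower genes, among them AT5G44520, AT5G44580, AT5G45410 and AT5G45500 described above, and 1 higher gene, CYTC6A. This is a description of gene order in these samples and was not tested.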

How the data were processed

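Leaf transcripts were measured on 12 Affymetrix arrays, 3 for each of 4 genotypes taken from the sample labels. The values are linear signal intensities as deposited by the authors, made with Affymetrix Expression Console 1.0 per the submitters' processing notes. How probes were summarised and scaled is not given in these sources, and every array had a trimmed mean of about 500.1. Genes were assigned from the platform's annotation, and a RefSeq table (TAIR10.1) supplied current symbols and gene order. Of the 22746 tested probe sets, 13513 had a single gene (13436 matched that table, 77 kept the annotation's name), 503 had several and 8730 none. Single-gene probe sets alone were named, the brightest one where a gene had more. Signals were taken as log2(signal + 16) and fitted in limma 3.58.1 (R 4.3.3) with a mean per genotype over all 12 arrays and eBayes moderation. The two-sided p-values were adjusted for all 22746 by Benjamini-Hochberg, and an adjusted p under 0.05 was called; intervals are from the same fit. All 22810 probe sets were fitted again for the control values. The procedure was tested on simulated data.

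Named are the 12 highest and 12 lowest called genes without overlap between the genotypes, every measured iron gene, and of other lists and families up to 4 called members or the one with the largest difference. The comparison, lists and members were chosen with earlier results of these data known, and no list was tested as a set. Organelle-encoded genes were found by chromosome in the RefSeq table, because the planned locus pattern matched 0. Replicate numbers did not pair the samples (correlations of deviations 0.194, 0.171 and -0.153), so the main fit has no block. Precision is limited by the number of arrays, since arrays have no depth. Alternatives were offsets of 1 and 64, median centring, quantile normalization, leaving out probe sets under the 40th percentile of mean signal, a replicate block, the 6 arrays alone, each array left out, a trended robust variance prior and, added after seeing the data, leaving out both wild type replicate 2 and ssi2 replicate 3.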

Additional observations from a re-analysis of the deposited data

How the results depend on the processing

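Limits are 3 arrays a genotype, no detection calls, and an estimate of the spread shared by all 12 arrays. With the 6 arrays alone, 30 probe sets were called higher and 62 lower, and 20.9% of the 407 calls were kept. An offset of 1 gave 105 higher and 163 lower, the replicate block 117 and 190, and leaving out both wild type replicate 2 and ssi2 replicate 3 gave 294 and 505. Leaving out 1 array gave 65 to 197 higher and 123 to 370 lower. The offset of 64, quantile normalization, median centring, the filter and the trended prior stayed within 1.5 times of 151 and 256. The fits with 6 or 11 arrays hold fewer samples; the cause of the other shifts was not tested. The replicate block ended the calls of 5 named genes (AT3G28500, AT4G23610, AT5G22460, EFR and UGT71B1) and brought 1, PDF1.2, past the threshold (adjusted p = 0.0385).

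Signs changed for 13 named genes, none of them called. Leaving out 1 array moved the difference between -0.087 and 0.516 for AT2G22750, -0.06 and 0.518 for AT2G22760, -0.101 and 0.598 for AT3G12900, -0.117 and 0.465 for AT3G43630, -0.03 and 0.256 for AT3G43660, and -0.426 and 0.259 for AT3G61930. The range was -0.514 to 0.306 for GI, -0.257 to 0.111 for ILR3, -0.612 to 0.197 for NAI1, -0.967 to 1.127 for OSM34, -0.357 to 0.874 for RCA, -0.082 to 0.276 for THI2.1 and -0.163 to 0.234 for WRKY53. Without wild type replicate 2 and ssi2 replicate 3 the difference was -0.045 for AT3G43630, 0.259 for AT3G61930, 0.064 for ILR3, 1.127 for OSM34, -0.357 for RCA and -0.082 for THI2.1. With an offset of 1 OSM34 was at 0.274, with an offset of 64 WRKY53 at -0.001, and with median centring WRKY53 at -0.008.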

Other observations

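Among the 407 called probe sets, 67 of the higher and 116 of the lower ones had no gene in the annotation used. The highest of them, probe set 251677_at, read 1560, 2921 and 3511 in ssi2 act1, 2450.2, 2391 and 304 in ssi2, 361, 3283 and 312 in ssi2 sid2, and 31.7, 1.04 and 68.2 in wild type (log2 difference 5.95, adjusted p = 0.0101, limma). That is the largest difference of any called probe set. The lowest of them, probe set 255723_at, read 118, 24.8 and 6.32 in ssi2 act1, 185, 239.8 and 47.6 in ssi2, 91.0, 81.9 and 75.7 in ssi2 sid2, and 1196, 5028 and 911 in wild type (log2 difference -5.17, adjusted p = 0.0065). Of the 64 control probe sets, 0 were higher and 2 were lower in ssi2 act1 than in wild type, both for the 3′ end of actin. The second of these read 1231, 1533 and 1983 in ssi2 act1 and 10954, 7322 and 11718 in wild type (log2 difference -2.65, adjusted p = 0.0011). The ssi2 arrays read 1202, 1067 and 1390.4 there and the ssi2 sid2 arrays 1436, 1687 and 1416. The matching 5′ probe set read 3484, 1938 and 4871 in ssi2 act1 and 4881, 2258 and 4826 in wild type and was not called (log2 difference -0.23, adjusted p = 0.896).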
